A study of Mus musculus with 6 samples.

Results

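The collagen genes are the genes that encode the alpha chains of collagen, and they were taken as every row of the deposited table whose symbol reads Col, a number, a and a number. That rule found 44 of 50600 genes. RNA had been sequenced from resident macrophages of pancreatic islets and of epididymal white adipose tissue, a fat pad of the abdomen (EpiWAT, here fat). Both tissues came from autologous C57BL/6J males, 12 weeks old and fed chow, with no treatment in either group. The cells were sorted by flow cytometry as DAPI-negative, that is live, and positive for CD45, F4/80 and CD64, a gate that fibroblasts, vessel cells and islet endocrine cells are not known to pass. Each tissue gave 3 libraries, which carry the numbers 2, 4 and 6, and values are listed in that order throughout. How many animals went into an islet library is not stated in the labels, so the p values measure the spread between these libraries.

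Collagens are the main proteins of the extracellular matrix. Fibrillar collagens such as types I, III and V form the fibres of connective tissue, type IV forms the mesh of basement membranes under endothelium and around mural cells and adipocytes, and type VI forms beaded filaments that are abundant in adipose tissue. Fibroblasts, mural cells and endothelial cells are the usual makers of these chains in both tissues, while macrophages are known mainly for binding, taking up and degrading collagen. In sorted macrophages, collagen RNA is therefore a readout that several cell types can contribute to.

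Total counts ranged from 4089980 to 9235591 per library, and 13020 to 19308 genes had at least 1 count. The 10 macrophage markers were all detected in every library and together took 0.543% to 0.695% of counts in islet and 0.779% to 0.941% in fat. Adgre1, which encodes F4/80, had 749, 1066 and 485 CPM in islet and 459, 492 and 583 CPM in fat, where CPM are counts scaled to a common library size with trimmed-mean (TMM) factors. The label of macrophages was therefore met by its defining markers. RNA of other cells was present too: Ins2, an insulin gene, stood at 5523, 3509 and 1884 CPM in the islet libraries against 3.58 CPM or less in fat.

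As a family, collagen RNA took a small share of counts in both tissues, but it was made up of different genes. The share was 0.0434%, 0.0567% and 0.0371% of counts in islet against 0.101%, 0.0521% and 0.0233% in fat. The 3 islet libraries lay within the range of the 3 fat libraries, and the means were 0.0457% ± 0.00998 and 0.0587% ± 0.0391 (SD, n = 3 per tissue), a ratio of fat to islet of 1.28. Exact (Clopper-Pearson) 95% intervals, which cover counting error only, ran from 0.0357% to 0.0386% in islet library 6 and from 0.0986% to 0.103% in fat library 2, so the spread between the fat libraries was far wider than counting error. By number, the fat library held 2.32, 0.920 and 0.628 times the share of the islet library for numbers 2, 4 and 6, so no direction was shared by all numbers. Without fat library 2, the ratio of the means was 0.825.

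The make-up of that RNA is what separated the tissues. Col14a1, Col27a1, Col15a1 and Col11a2, the collagens that were higher in islet by the test described next, took 95.6%, 99.4% and 87.0% of collagen counts in islet but 6.81%, 9.96% and 12.1% in fat. Col14a1 by itself made 69.0%, 81.8% and 46.8% of islet collagen counts. The 40 other collagen genes together took 0.00193%, 0.000342% and 0.00484% of all counts in the islet libraries and 0.0938%, 0.0469% and 0.0205% in the fat libraries. These sums follow from the genes' own calls and are given as a description with no test. In fat, Col3a1 took 19.8%, 23.3% and 19.0% of collagen counts and Col4a1 20.7%, 16.0% and 16.3%, so each kept a similar part of the fat collagen RNA in all 3 libraries.

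**Figure D1:**
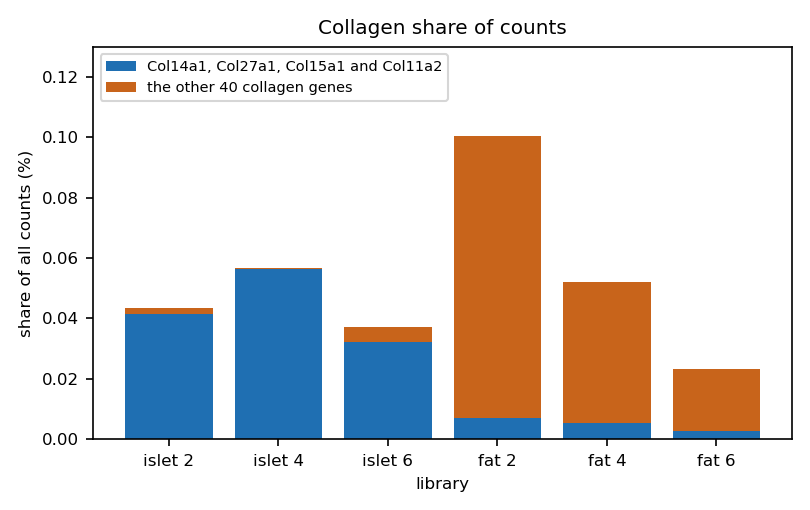
Share of all counts (%, y axis) taken by collagen genes in each of the 6 libraries (x axis), with Col14a1, Col27a1, Col15a1 and Col11a2 in blue and the other 40 collagen genes in orange. Islet bars are almost wholly blue (0.0415%, 0.0563% and 0.0323%), fat bars almost wholly orange (0.0938%, 0.0469% and 0.0205%), and fat library 2 holds the tallest bar.

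Each gene was tested as islet minus fat by edgeR's quasi-likelihood test over all 12152 genes with enough counts, with Benjamini-Hochberg adjustment and a threshold of 0.05. Of the 44 collagens, 22 had enough counts to be tested. Of these, 4 were higher in islet, 13 were lower and 5 did not pass, where 8.97% of all genes tested were higher and 10.5% lower. The median log2 difference of the 22 was -3.82, and that of all genes tested was 0.01. This median and the count of lower collagens lean on how genes entered the test. Of the 22, 10 had under 10 counts in every islet library and were kept through their fat counts. Each of the 13 lower collagens had under 10 counts in at least 1 islet library, so all 13 needed their fat counts to be tested. Groups did not overlap for 20 of the 22 collagens, with 4 higher in every islet library and 16 higher in every fat library. Over all genes tested these shares were 18.2% and 22.3%. The 16 also needed their fat counts to be tested, so their number leans on the filter too. The collagens with overlapping groups were Col7a1 and Col9a3. In bulk RNA, fewer cells of a type and less RNA per cell cannot be told apart. The count of lower collagens was 7 without fat library 2, where 4.71% of all genes were lower, and 6 without islet libraries 2 and 4 together, where 20.4% were. The count of higher collagens was 2 without islet library 2, fat library 4 or fat library 6, where 5.80%, 3.66% and 4.21% of all genes were higher.

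**Figure D2:**
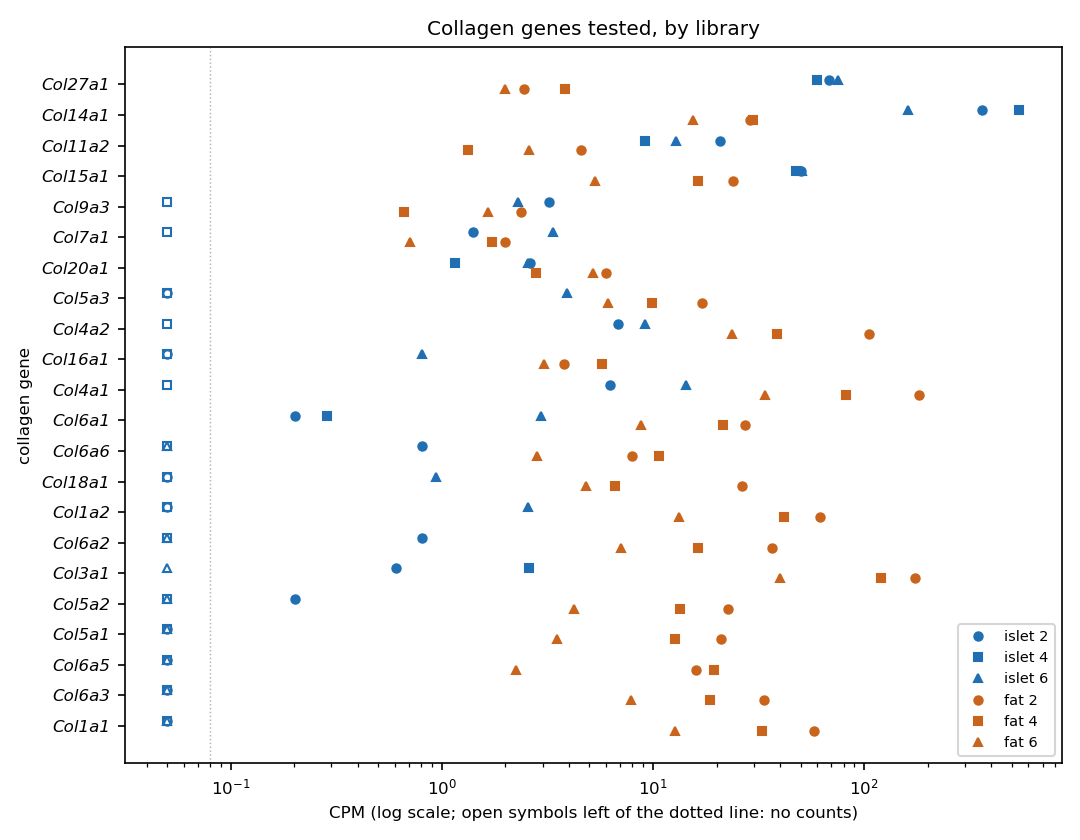
CPM (x axis, log scale) of the 22 collagen genes tested (y axis, ordered by the fitted difference), with islet libraries in blue, fat libraries in orange and 1 symbol shape for each library number. Open symbols left of the dotted line are libraries with no counts; they are all islet libraries.

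**Figure D3:**
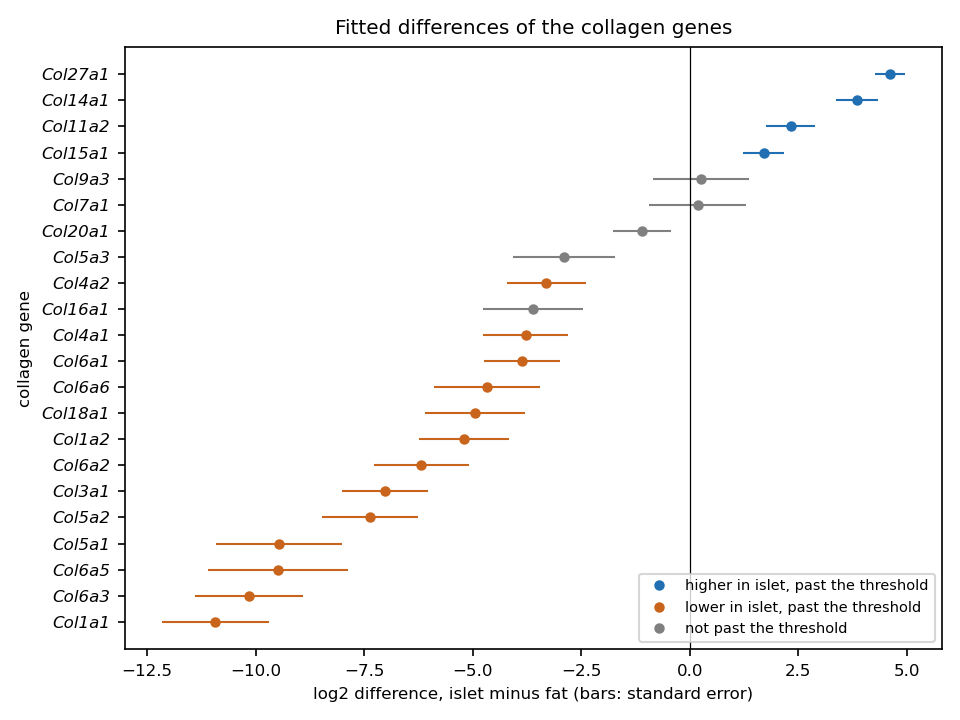
Fitted log2 difference, islet minus fat (x axis), of the 22 collagen genes tested (y axis), with standard errors as bars. Col27a1 (4.61) and Col14a1 (3.85) are highest, and the orange points to the left are the 13 collagens that were lower in islet. The values furthest left belong to genes with no islet counts, where the fitted value depends on the prior count and the text gives a bound.

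Col14a1 encodes the chain of type XIV collagen, which binds to the surface of collagen fibrils (GRCm38, chromosome 15, 55307750 to 55520803, plus strand). Its islet values were 361, 544 and 162 CPM, against fat values of 28.8, 29.9 and 15.4 CPM. Every islet library was far above every fat library. The fitted difference was 3.85 ± 0.49 on the log2 scale (SE), 14.4-fold, with an edgeR adjusted p = 0.00119. Over the alternatives run, the difference ranged from 2.64 to 4.19 and its adjusted p was at most 0.0101. Relative to Adgre1, the ratio of counts was 0.482, 0.510 and 0.334 in islet and 0.0628, 0.0607 and 0.0265 in fat, so the groups stayed apart per count of this marker. They did so for Col27a1 as well (0.0562 to 0.155 in islet, 0.00343 to 0.00782 in fat), but met for Col15a1 (0.0446 to 0.105 and 0.00909 to 0.0523) and for Col11a2 (0.00861 to 0.0277 and 0.00270 to 0.00988).

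Col27a1 encodes a fibrillar collagen best known from cartilage (GRCm38, chromosome 4, 63214004 to 63334991, plus strand). Its islet values were 67.9, 59.9 and 75.3 CPM, against 2.46, 3.85 and 2.00 CPM in fat, which makes it the collagen with the largest positive difference: 4.61 ± 0.34 on the log2 scale (SE), 24.5-fold, edgeR adjusted p = 9.79e-05. The islet libraries lay close together for this gene. It was past the threshold in all 16 alternatives, with differences of 4.42 to 4.84 and adjusted p up to 0.00161. Per kilobase of transcript, the level in islet was 8.90 CPM for Col27a1 and 55.1 CPM for Col14a1.

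Col15a1, a multiplexin of basement membrane zones (GRCm38, chromosome 4, 47208161 to 47313167, plus strand), was nearly constant in islet at 50.0, 47.6 and 50.8 CPM. Its fat values of 24.0, 16.3 and 5.29 CPM were all lower but spread widely. The difference was 1.70 ± 0.47 (log2, SE), 3.24-fold, with an edgeR adjusted p = 0.0361. This call did not hold without islet library 2 (0.0847), fat library 4 (0.131) or fat library 6 (0.0502), each an edgeR adjusted p. The fold between fat libraries 2 and 6 was 4.54 for Col15a1 and 1.87 for Col14a1.

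Col11a2, a minor fibrillar chain of cartilage fibrils (GRCm38, chromosome 17, 34039437 to 34066685, plus strand), stood at 20.8, 9.17 and 12.8 CPM in islet and at 4.54, 1.33 and 2.59 CPM in fat. The difference was 2.32 ± 0.57 (log2, SE), 4.99-fold, with an edgeR adjusted p = 0.0221, and the call was lost without islet library 2 (0.0815), fat library 4 (0.0915) or fat library 6 (0.0913). Col11a2 begins 1038 bases beyond the end of Rxrb, a nuclear receptor gene on the same strand. Rxrb stood at 64.5, 63.4 and 19.8 CPM in islet and at 20.5, 25.6 and 28.8 CPM in fat, so its islet and fat ranges met in islet library 6, where those of Col11a2 did not. Whether reads running on from Rxrb add to Col11a2 was not tested. The partner chain gene Col11a1 had no counts in any library.

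The stretches just before the RefSeq start sites of 5 collagen genes are shown because these genes moved in opposite directions between the same libraries: 3 that were higher in islet and 2 that were higher in fat. Each is the 150 bases before the start site in RefSeq (GRCm38.p6), written 5′ to 3′ along the gene's strand, with any TATAAA in capitals. The Col27a1 stretch lies within the gene's GENCODE span given above, which begins further upstream, and overlaps none of its exons. Of the 44 collagen genes, 35 were in the promoter table, with 38 promoters in all.
Col27a1, chr4:63215262-63215411, plus strand: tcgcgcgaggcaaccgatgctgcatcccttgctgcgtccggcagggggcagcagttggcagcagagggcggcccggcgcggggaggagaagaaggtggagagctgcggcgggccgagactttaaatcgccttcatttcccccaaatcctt
Col15a1, chr4:47207862-47208011, plus strand: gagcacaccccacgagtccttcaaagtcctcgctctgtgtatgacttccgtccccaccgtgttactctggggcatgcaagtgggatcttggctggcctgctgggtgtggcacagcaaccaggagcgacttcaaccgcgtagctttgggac
Col11a2, chr17:34038988-34039137, plus strand: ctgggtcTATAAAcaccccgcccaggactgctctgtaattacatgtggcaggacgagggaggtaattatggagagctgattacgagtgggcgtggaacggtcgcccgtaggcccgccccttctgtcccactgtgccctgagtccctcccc
Col3a1, chr1:45311388-45311537, plus strand: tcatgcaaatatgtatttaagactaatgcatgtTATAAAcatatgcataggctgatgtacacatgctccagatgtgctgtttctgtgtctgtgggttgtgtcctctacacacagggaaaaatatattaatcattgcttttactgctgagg
Col6a3, chr1:90843972-90844121, minus strand: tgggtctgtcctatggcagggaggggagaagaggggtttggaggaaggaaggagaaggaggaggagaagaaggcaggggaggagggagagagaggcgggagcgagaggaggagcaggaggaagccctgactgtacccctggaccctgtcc

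TATAAA, the core of a TATA box, was searched on both strands of the same 150 bases of every promoter. It was found in 4 of 38 collagen promoters (Col10a1, Col11a2, Col17a1 and Col3a1) and in 7.57% of all 32851 promoters. It is present upstream of Col11a2, which was higher in islet, and of Col3a1, which was higher in fat, so it did not go with 1 direction. CCAAT was found in 8 of 38 collagen promoters, those of Col4a1, Col4a2, Col1a2, Col5a3 and Col16a1 among them, and in 24.5% of all promoters. GAGGAAGT, a core bound by the myeloid factor PU.1, was in none of the 38 collagen promoters and in 1.63% of all promoters. The bases shown also differ in composition: G and C make up 65.3% of the Col27a1 stretch, 59.3% of Col15a1, 60.0% of Col11a2, 62.7% of Col6a3 and 37.3% of Col3a1. These matches are descriptions of letters and say nothing about binding.

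The chains of the main fibrils were near or at background in islet and present in every fat library. Of 11 fibrillar genes, 8 were tested, 5 were lower in islet, 2 were higher (Col27a1 and Col11a2) and 1 did not pass. Col1a1, the alpha 1 chain of type I collagen, had no counts in any islet library and stood at 57.8, 32.9 and 12.7 CPM in fat. A count of 0 allows up to 0.605, 0.860 and 0.404 CPM in islet libraries 2, 4 and 6 (3 counts per library). The fat mean over the mean of these limits makes Col1a1 at least 55.3-fold lower in islet on average (edgeR adjusted p = 0.00172). This and every later fold given as at least is a bound on the ratio of means. It does not cover the spread between fat libraries, and the lowest fat library alone would give a smaller fold. Its partner Col1a2 had counts in 1 islet library, with 0, 0 and 2.56 CPM in islet against 61.7, 41.8 and 13.3 CPM in fat (log2 -5.20 ± 1.04, SE, edgeR adjusted p = 0.00927, and 0.0523 without fat library 2). The islet library with Col1a2 counts had none of Col1a1.

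Col3a1, the type III chain of reticular fibres, is abundant in loose connective tissue. It stood at 174, 120.2 and 39.8 CPM in fat and at 0.605, 2.58 and 0 CPM in islet. No islet library came near the lowest fat library. The difference was -7.02 ± 0.98 (log2, SE; edgeR adjusted p = 0.00173). Type V chains, which set fibril diameter, gave the same picture at a lower level: Col5a1 had no islet counts and 21.0, 12.7 and 3.53 CPM in fat, at least 19.9-fold lower in islet (edgeR adjusted p = 0.00545). Col5a2 had 1 islet count against 22.7, 13.5 and 4.24 CPM in fat, 225 times as much in fat by counts (95% counting interval 40.2 to 8928) (edgeR adjusted p = 0.00258). Col5a3, with 0, 0 and 3.91 CPM in islet against 17.0, 9.95 and 6.12 CPM in fat, missed the threshold (edgeR adjusted p = 0.122). It passed without islet library 6 (edgeR, 0.00143), in edgeR with no filter (0.000297) and in limma voom (0.0392).

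In fat, the partner chains of types I and V kept similar ratios to each other, and so did Col6a3 and Col6a2. The ratios of Col6a1 to Col6a2 and, given further on, of Col4a1 to Col4a2 varied more. No counting error was computed for these ratios. Per kilobase of the transcript with the longest coding sequence, Col1a1 over Col1a2 was 0.844, 0.710 and 0.862 in fat libraries 2, 4 and 6, and Col5a1 over Col5a2 was 0.729, 0.742 and 0.657. Over the same libraries the level of Col1a1 itself changed 4.55-fold. Col6a1 over Col6a2 was 0.716, 1.27 and 1.20, so library 2 stood apart, while Col6a3 over Col6a2 was 0.357, 0.448 and 0.436. With the summed length of all annotated exons instead, Col1a1 over Col1a2 was 1.77, 1.49 and 1.81, so the size of that ratio depends on the gene model.

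The network chains of basement membranes were lower in islet, but were not absent there. Col4a1 stood at 6.25, 0 and 14.3 CPM in islet and at 182, 82.3 and 34.1 CPM in fat (log2 -3.78 ± 0.98, SE, edgeR adjusted p = 0.0278). Col4a2 stood at 6.85, 0 and 9.16 CPM in islet and at 105, 38.5 and 23.8 CPM in fat (log2 -3.31 ± 0.91, SE, edgeR adjusted p = 0.0347). Both chains were thus found in the same islet libraries, 2 and 6, and neither had a count in islet library 4. Both calls were sensitive to single libraries: Col4a1 had an edgeR adjusted p of 0.0969, 0.125 and 0.0721 without islet library 2, fat library 2 and fat library 4, and Col4a2 had 0.0942, 0.182, 0.0771 and 0.0571 without these and without fat library 6. DESeq2 gave an adjusted p of 0.0584 for Col4a1 and 0.0798 for Col4a2, and limma voom 0.0649 and 0.0795. Col4a1 and Col4a2 lie head to head on chromosome 8, and their annotated ends (11312826 and 11312805, GRCm38) overlap by 22 bases. Per kilobase, Col4a1 over Col4a2 was 1.69, 2.08 and 1.40 in fat libraries 2, 4 and 6.

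The remaining type IV chains were rare. Col4a3, Col4a4, Col4a5 and Col4a6 were not tested. Col4a5 had 38, 22 and 1 counts in fat libraries 2, 4 and 6, Col4a6 had 28, 7 and 3, Col4a4 had 15, 17 and 5, and Col4a3 had 10, 3 and 0. Among them only Col4a3 had islet counts, 3 in islet library 6. Col4a4 and Col4a5 were tested and lower in islet in DESeq2 (adjusted p = 0.0351 and 0.0141) and in edgeR with no filter on low counts (0.0497 and 0.0108).

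Type VI chains, which in adipose tissue surround adipocytes, were also lower in islet in every member tested: 5 of 5, of 6 genes. Col6a3 had no islet counts and 33.6, 18.7 and 7.88 CPM in fat, at least 32.2-fold lower in islet (edgeR adjusted p = 0.00238). Col6a1 stood at 0.202, 0.287 and 2.96 CPM in islet against 27.3, 21.5 and 8.82 CPM in fat (log2 -3.87 ± 0.87, SE, edgeR adjusted p = 0.0150, but 0.0779 and 0.0588 without fat libraries 2 and 4). Col6a2 stood at 0.806, 0 and 0 CPM against 36.8, 16.3 and 7.06 CPM (log2 -6.18 ± 1.10, SE, edgeR adjusted p = 0.00524). For all 3 chains of the classical type VI molecule, each islet library was below every fat library, with the narrowest gap for Col6a1 in islet library 6.

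The alternative type VI chains differed from these in how they ran across the fat libraries. Col6a5 had no islet counts and 16.0, 19.5 and 2.24 CPM in fat libraries 2, 4 and 6 (at least 20.2-fold lower, edgeR adjusted p = 0.00843). Col6a6 stood at 0.806, 0 and 0 CPM in islet and at 7.94, 10.7 and 2.82 CPM in fat (log2 -4.67 ± 1.21, SE, edgeR adjusted p = 0.0270, and 0.115, 0.132 and 0.0511 without fat libraries 2, 4 and 6). These were the collagens lower in islet that peaked in fat library 4; the other 11 peaked in fat library 2. Col6a4 had 3 counts, all in fat library 4.

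Col18a1, the multiplexin of vascular basement membranes whose C-terminal fragment is endostatin, went the opposite way from its relative Col15a1. It stood at 0, 0 and 0.943 CPM in islet and at 26.4, 6.63 and 4.82 CPM in fat (log2 -4.95 ± 1.15, SE, edgeR adjusted p = 0.0174, and 0.0550 and 0.148 without islet library 2 and fat library 2). Both genes were highest in fat library 2 and lowest in 6, but Col18a1 lost most of its level between libraries 2 and 4 and Col15a1 between 4 and 6.

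Other fibril-associated collagens were low. Col16a1 stood at 0, 0 and 0.808 CPM in islet and 3.78, 5.71 and 3.06 CPM in fat (edgeR adjusted p = 0.0603). It passed in DESeq2 (adjusted p = 0.0111) and in limma voom (0.0191). In edgeR it passed with no filter (0.0188), with a filter of 1 CPM (0.0466) and without islet library 6 (0.00822). Col20a1 stood at 2.62, 1.15 and 2.56 CPM in islet and 5.96, 2.79 and 5.18 CPM in fat (edgeR adjusted p = 0.295). Col9a3 stood at 3.23, 0 and 2.29 CPM in islet and 2.36, 0.663 and 1.65 CPM in fat (edgeR adjusted p = 0.897). All of these missed the threshold in the main edgeR fit, and 6.07% of the exon bases of Col9a3 overlap Tcfl5 on the opposite strand. Col7a1, the chain of anchoring fibrils in skin, also did not pass, at 1.41, 0 and 3.37 CPM in islet and 1.99, 1.72 and 0.706 CPM in fat (edgeR adjusted p = 0.934).

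Of the 22 collagens with too few counts to test, 6 had none in any library: Col9a1, Col9a2, Col10a1, Col11a1, Col13a1 and Col26a1. Another 7 had 1 to 9 counts over all 6 libraries. The other 9 had at least 10. Beyond the type IV chains these were Col8a1, a short-chain collagen of vessel walls (32, 2 and 2 counts in fat libraries 2, 4 and 6), Col28a1 (23, 1 and 0), Col12a1 (15, 0 and 0), Col23a1 (5, 2 and 5) and Col25a1. None of these 5 except Col25a1 had an islet count. Col25a1, a transmembrane collagen, had 13 counts in islet library 6, none in the other islet libraries and 1 count in fat library 6. Fat library 2 held most of the counts of Col8a1, Col28a1 and Col12a1.

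Fat libraries differed among themselves in a pattern shared by most collagens. Of the 13 collagens lower in islet, 11 were highest in fat library 2, intermediate in 4 and lowest in 6, with a fold between libraries 2 and 6 that ran from 2.81 (Col6a6) to 7.15 (Col6a5) over all 13 and was 4.82 for their sum. Markers of other cell types moved over the same libraries. All 9 endothelial markers tested and 5 of 6 mural markers tested were ordered as the 11 collagens were, and the summed share of these lists fell 5.54-fold and 7.46-fold from fat library 2 to 6. Cdh5, an endothelial cadherin, stood at 56.7, 24.4 and 8.47 CPM and Rgs5, a pericyte gene, at 90.3, 32.6 and 9.29 CPM. In counts, Col4a1 over Cdh5 was 3.21, 3.37 and 4.03, and Col4a1 over Rgs5 was 2.01, 2.52 and 3.67, so the difference between fat libraries 2 and 6 was wider for Rgs5 than for Col4a1.

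Fibroblast markers ran differently. Dcn, the proteoglycan decorin of fibroblasts, stood at 72.7, 92.7 and 16.8 CPM in fat libraries 2, 4 and 6, and 8 of 14 tested fibroblast markers, Pdgfra and Dpt among them, peaked in library 4. The summed fibroblast share was 0.0218%, 0.0246% and 0.00835%. Col3a1 over Dcn was accordingly uneven, at 2.40, 1.30 and 2.36. Col6a5 and Col6a6 had the fibroblast order, and Col6a5 over Dcn was 0.220, 0.210 and 0.133. Of 8 adipocyte markers tested, 6 also peaked in library 4, while Lipe peaked in library 2 and Pnpla2 in library 6. The summed share of the list was 0.0197%, 0.0183% and 0.0148%, a 1.34-fold change between libraries 2 and 6. That sum did not follow the order of the 6, and it includes Lipe and Pnpla2, which also had islet counts. Macrophage markers went from 0.779% in library 2 to 0.941% in library 6, and none of the 10 had the order of the 11 collagens. The part of these cells in the collagen counts was not tested. With 3 libraries, an order is a description only.

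**Figure D4:**
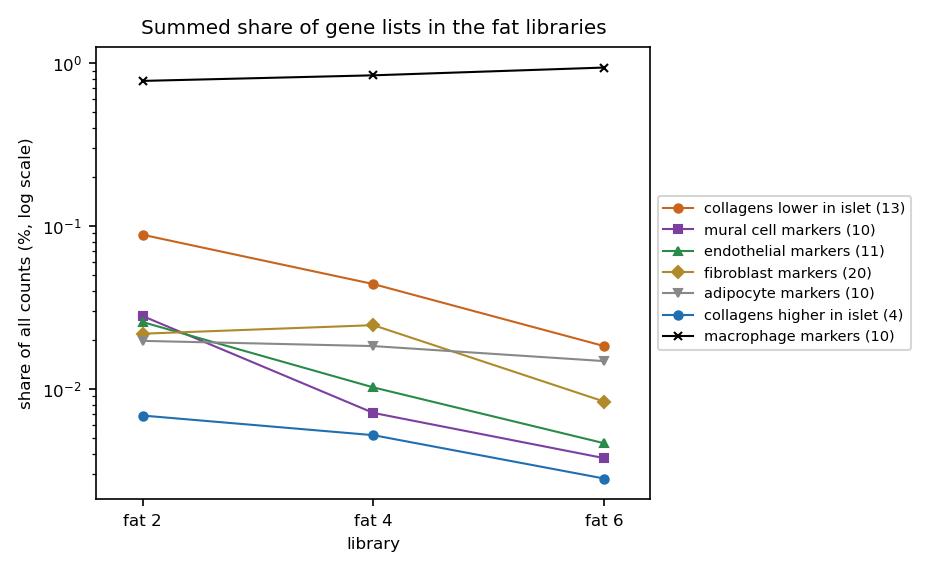
Summed share of all counts (%, y axis, log scale) of the collagens and of marker lists, with the number of genes in parentheses, in fat libraries 2, 4 and 6 (x axis). Lines only join the points of a list. Collagens lower in islet fall from 0.0884% to 0.0183%, beside mural and endothelial markers, while fibroblast markers peak in library 4 and macrophage markers end highest in library 6.

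Between tissues, fibroblast markers were mostly lower in islet, while 3 mural and 4 endothelial markers were lower in edgeR. Of 20 fibroblast markers, 14 were tested, 10 were lower in islet, 1 was higher and 3 did not pass (median log2 difference -3.21 with genes without islet counts at their bound). As for the collagens, this median leans on how genes entered, since 7 of the 14 had no islet counts and were kept through fat. The count of lower fibroblast markers was 6 without fat library 2 and 4 without fat library 4, where 4.71% and 5.39% of all genes were lower. In the main fit 10.5% of all genes tested were lower and 8.97% higher, shares that apply to the mural, endothelial and adipocyte lists too. Dcn had no islet counts (at least 97.5-fold lower, edgeR adjusted p = 0.00173), and Pdgfra, Lum and Dpt had none either. Bgn, biglycan, fell from 12.7 ± 8.09 CPM in fat to 1.62 ± 0.895 CPM in islet (SD, n = 3 per tissue, edgeR adjusted p = 0.0199, and 0.0668 to 0.128 without islet library 2, fat library 2 or fat library 4), and Gpx3, a secreted peroxidase, from 34.3 ± 11.5 to 8.13 ± 3.01 CPM (edgeR adjusted p = 0.00783). The exception was Cxcl14, a chemokine also made by other cells, at 20.6, 25.5 and 26.3 CPM in islet and 0.756, 0 and 0 CPM in fat (edgeR adjusted p = 0.00193). The summed fibroblast share was 0.00308% to 0.00439% in islet and 0.00835% to 0.0246% in fat.

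Of 10 mural markers, 6 were tested and 3 were lower in islet in edgeR, against 6 in DESeq2 and 1 in limma voom, which called 12.2% and 12.4% of all genes lower. Rgs5 and Notch3, a receptor of vascular smooth muscle, fell (edgeR adjusted p = 0.0284 and 0.0226), while Pdgfrb and Myh11 did not pass (0.0859 and 0.0887). Of 11 endothelial markers, 9 were tested and 4 were lower in edgeR, against 7 in DESeq2 and 2 in limma voom. Cdh5 fell (edgeR adjusted p = 0.0403), and Pecam1, Kdr and Flt1 did not pass (0.0540, 0.298 and 0.0625). Endothelial markers took 0.00122% to 0.00334% of islet counts and 0.00463% to 0.0257% of fat counts. With the library number as a block, the edgeR adjusted p was 0.126 for Cdh5 and 0.0634 for Rgs5, and 2 endothelial markers were lower (9.08% of all genes). Leaving out islet library 2, fat library 2 or fat library 4 ended the calls of Rgs5, Notch3 and Cdh5, and leaving out islet library 4 ended those of Rgs5 and Cdh5 (edgeR adjusted p from 0.0509 to 0.208). In the islet libraries Pecam1, which some myeloid cells also express, stood at 5.85, 3.44 and 7.27 CPM, and Cdh5 at 0, 3.44 and 4.45 CPM, so islet library 2 had Col4a1 counts and no Cdh5 count. Without fat library 2, the mural and the endothelial list had 0 lower genes in edgeR, with 3 and 4 at an unadjusted p under 0.05. Without fat library 4 or islet library 2 they had 1 and 2, where 5.39% and 8.39% of all genes were lower.

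Adipocyte, mesothelial and Schwann cell lists were also lower or rare in islet. Of 10 adipocyte markers, 8 were tested and 6 were lower, Cidec and Cfd among them. All 6 had no islet counts and were kept through fat, so this count leans on how genes entered. Pnpla2 and Lipe did not pass (edgeR adjusted p = 0.530 and 0.362). Only 1 of 8 mesothelial markers was tested, Gpm6a (edgeR adjusted p = 0.245), and Msln, Upk3b and Lrrn4 stood at 5.30 CPM or less everywhere. None of 6 Schwann cell markers was tested, and Cdh19 and Ncmap stood at 0.471 CPM or less.

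Within islet, the higher collagens did not share 1 pattern. Col14a1 was highest in library 4, then 2, then 6, an order shown also by 6 of 10 macrophage markers (Adgre1, Aif1, Csf1r, Lyz2, Ptprc and Tyrobp). Of these 10 markers, 2 were higher in islet in edgeR (Tyrobp and Fcer1g), 2 were lower and 6 did not pass. In that fit 8.97% of all genes tested were higher and 10.5% lower. Both higher calls were lost with RLE or upper-quartile factors, without mitochondrial and ribosomal RNA genes, and without any library other than islet library 6. In DESeq2 4 were higher and without islet library 6 there were 5, where 9.39% and 12.7% of all genes were higher. Lyz2, the lysozyme gene, was lower (1474 ± 371 against 3692 ± 609.8 CPM, SD, n = 3 per tissue, edgeR adjusted p = 0.0237), a call lost without islet library 2 or any fat library (0.0651 to 0.0915). Col27a1 and Col15a1 were highest in library 6 and lowest in 4. Col11a2 was highest in library 2. Islet endocrine markers, all 10 of which were higher in islet, took 0.791%, 0.530% and 0.372% of counts in libraries 2, 4 and 6. Of these, 7 had that order, which none of the higher collagens had, and 1, Scg5, had the order of Col14a1. As in fat, an order of 3 libraries is a description only and does not assign RNA to a cell type. Ins1, Gcg, the glucagon gene, and Chga, a granule protein, stood at 607, 96.2 and 377 CPM in islet library 6. Over Ins2, the count ratio of Col14a1 was 0.0654, 0.155 and 0.0861 in islet and 38.1 and 8.33 in fat libraries 2 and 4, where Ins2 was close to 0. Exocrine markers were rare, with 2 of 10 tested. Ctrb1, a chymotrypsin gene, was higher (4.03, 15.8 and 3.91 CPM in islet, none in fat, edgeR adjusted p = 0.00688), Cela1 did not pass (0.934), and Cpa1 and Pnlip peaked in islet library 4 at 12.0 and 28.7 CPM. Which cells held the collagen RNA of the islet libraries was not tested.

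Making a collagen chain needs hydroxylases, chaperones and export factors in the endoplasmic reticulum, and this machinery did not move as the chains did. Of 20 such genes, 14 were tested, 2 were higher in islet, 4 were lower and 8 did not pass. Of all genes tested, 8.97% were higher and 10.5% lower. The median log2 difference of the list was -0.12, beside 0.01 for all genes tested. The genes lower in islet included Serpinh1, the collagen chaperone HSP47, at 2.02, 0 and 0.269 CPM in islet against 21.6, 11.3 and 3.06 CPM in fat (log2 -3.92 ± 1.09, SE, edgeR adjusted p = 0.0358, and 0.0524 to 0.204 without islet library 4, fat library 2 or fat library 4). It also ran down from fat library 2 to 6 as the 11 collagens did. The prolyl 3-hydroxylase gene P3h2 fell too, but was flat in fat at 113, 96.2 and 97.3 CPM (13.9, 17.5 and 3.23 CPM in islet, edgeR adjusted p = 0.00394). Plod1, a lysyl hydroxylase, and Crtap, a partner of prolyl 3-hydroxylation, fell by 1.10 and 1.18 on the log2 scale (edgeR adjusted p = 0.0136 and 0.0497). The call for Plod1 was lost without fat library 6 (0.0734), and that for Crtap with the library number as a block (0.105) or without any library but islet library 4 (0.0571 to 0.227).

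The machinery genes higher in islet were P4ha1, a catalytic subunit of prolyl 4-hydroxylase, at 221, 153 and 86.8 CPM in islet against 61.0, 70.9 and 55.1 CPM in fat, and P3h3, at 20.6, 13.5 and 8.22 CPM against 2.08, 2.65 and 2.59 CPM. Their differences were 1.30 ± 0.34 and 2.52 ± 0.49 (log2, SE), with edgeR adjusted p = 0.0287 and 0.00812. P3h3 had 0.0544 without fat library 2, and P4ha1 0.0854 to 0.127 without islet library 2 or any fat library. P4hb, Ppib and Mia3, general factors of folding and export, did not pass (edgeR adjusted p = 0.128, 0.974 and 0.953). The most abundant of these, P4hb, stood at 412, 389 and 449 CPM in islet and 252, 298 and 294 CPM in fat.

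Among genes that trim and cross-link secreted collagen, 5 of 13 were tested and 3 were lower in islet, all with no islet counts. Pcolce, an enhancer of procollagen cleavage, stood at 14.5, 12.5 and 12.9 CPM in fat (at least 21.3-fold lower, edgeR adjusted p = 0.000962). Adamts2, a procollagen protease, and Loxl1, a lysyl oxidase relative, were at least 8.64-fold and 6.28-fold lower (edgeR adjusted p = 0.00835 and 0.0167, the latter 0.0518 with the library number as a block). Adamts2 had 0.0633 without fat library 2, and Loxl1 0.0975 and 0.0807 without fat libraries 2 and 4. Loxl2 and Loxl3 did not pass (edgeR adjusted p = 0.346 and 0.358), and Loxl3 had the higher mean in islet (7.89 ± 1.49 against 4.59 ± 2.05 CPM, SD, n = 3 per tissue). The count of lower genes in this list was 1 without fat library 2 and 5 without islet library 6, where 4.71% and 15.6% of all genes were lower. In the main fit 10.5% were lower. Pcolce was nearly level over the fat libraries, where Col1a1 was not.

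Collagen receptors and uptake genes, which macrophages themselves use, were mixed. Of 12, 8 were tested, 1 was higher, 3 were lower and 4 did not pass. Over all genes tested, 8.97% were higher and 10.5% lower. Mrc1, the mannose receptor that takes up collagen, stood at 113, 147 and 44.1 CPM in islet and 3879, 4032 and 4296 CPM in fat (log2 -5.33 ± 0.52, SE, edgeR adjusted p = 0.000297). Cd36, a scavenger receptor, fell by 1.93 on the log2 scale (edgeR adjusted p = 0.00349). Ddr2, a collagen-activated kinase typical of fibroblasts, had no islet counts and 26.5, 24.1 and 6.71 CPM in fat (at least 30.7-fold lower, edgeR adjusted p = 0.00246). Lair1, an inhibitory collagen receptor of immune cells, was higher at 260.4, 462 and 87.4 CPM in islet against 75.1, 96.5 and 56.9 CPM in fat (edgeR adjusted p = 0.0424), and that call was lost whichever library other than islet library 6 was left out (0.0925 to 0.159). Itgb1, the integrin beta 1 subunit, did not pass (0.435).

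Matrix genes other than collagens were mostly lower in islet: of 25, 20 were tested, 16 were lower and 4 did not pass. As for the collagens, this leans on how genes entered, since 7 of the 20 had no islet counts and were kept through fat. The lower count was 8 without fat library 2, where 4.71% of all genes were lower, against 10.5% in the main fit. Sparc, which binds collagen, stood at 4.43, 8.60 and 2.02 CPM in islet and 133, 98.7 and 28.2 CPM in fat (edgeR adjusted p = 0.00385). Fn1, fibronectin, was 13.1, 0 and 28.2 CPM in islet and 748, 529.9 and 1904 CPM in fat (edgeR adjusted p = 0.00723), with its highest value in fat library 6, where the collagens were lowest. Lamc1, a laminin chain, and Thbs1, thrombospondin 1, missed the threshold in edgeR (adjusted p = 0.638 and 0.755). No gene of this list, of the cross-linking list or of the mural, endothelial and adipocyte lists was higher in islet in edgeR (0 also at an unadjusted p under 0.05, in DESeq2 and in limma voom).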

How the data were processed

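Raw counts per gene were deposited by the authors, not normalised. Per the submitters' processing notes, STAR, featureCounts, Subread 1.6.4 and GRCm38 were used, while no label states the gene annotation or the strand setting (not given in the sources used here). Libraries came from 10 ng of total RNA with a stranded low-input kit, per the labels' protocols. Identifiers were matched to GENCODE M21 (50376 of 50600, 99.56%) for coordinates.

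Counts were fitted in R 4.3.3 with edgeR 4.0.16: filterByExpr, TMM factors, robust quasi-likelihood fits on tissue alone, Benjamini-Hochberg adjustment over 12152 genes, threshold 0.05. The fit was also run on simulated counts with 1 fixed fold. That run was not set up for genes without counts in a tissue, so it does not vouch for such calls. Folds are fitted values, with 2 exceptions. A tissue without counts is set at 3 counts in each library, which gives a bound on the ratio of the tissue means. Count ratios with exact 95% intervals are given where it had 1 to 3. Intervals used scipy 1.17.1. The alternatives tried were DESeq2 1.42.0, RLE and upper-quartile factors, voom in limma 3.58.1, no filter, a filter of 1 CPM, the library number as a block, gene classes left out, and libraries left out. The design text calls the tissues autologous, so equal numbers were taken as the same animal. Deviations from the tissue means correlated across genes at 0.0441, 0.0733 and 0.00214 for numbers 2, 4 and 6. For unequal numbers the correlations ran from -0.14 to 0.101, a range that holds those of equal number. Deviations from a mean of 3 libraries depend on each other, so this measure cannot tell whether libraries of equal number were more alike.

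The members, the 13 lists set beside them and the tests were chosen with earlier results of these data known. Every collagen tested is named, with untested ones of at least 10 counts. In the other lists, the 4 members with the highest mean CPM are named, plus machinery, cross-linking and receptor genes past the threshold. Some genes that this rule takes are not reported here. Other names, such as Rxrb, Lum and Dpt, were chosen after their values were seen. No library was left out of the comparison.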

Additional observations from a re-analysis of the deposited data

How the results depend on the processing

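Of 350 values of collagen differences over 16 alternatives, 307 stayed on the same side of the threshold. Another 34 no longer passed, 9 newly passed and 0 passed in the opposite direction. For the other named genes these numbers were 712, 63, 22 and 0 of 797. Genes not past the threshold could change sign: the log2 difference ran from -0.95 to 1.10 for Col7a1 and from -0.34 to 0.80 for Col9a3. Col14a1, Col27a1, Col5a1, Col5a2 and Col6a3 passed in all 16 alternatives. The count of lower collagens, 13, was 6 without islet libraries 2 and 4 together, a fit that takes the spread of the single islet library left from the fat libraries, and 7 to 15 with 1 library left out. The count of higher collagens, 4, was 2 to 4 with 1 library left out. For the other lists, 51 lower genes became 25 to 63 and 17 higher genes 12 to 20 with 1 library left out. The share of all genes tested moved too. It ran from 4.71% (without fat library 2) to 15.6% (without islet library 6) for lower genes. For higher genes it ran from 3.66% (without fat library 4) to 12.7% (without islet library 6). With the replicate block, that is the library number as a term, the counts were 13 lower and 4 higher collagens, and no collagen call changed. Among the other named genes the block ended the calls of Crtap, Loxl1, Rgs5 and Cdh5 and changed no other.

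The mean collagen share in islet, 0.0457%, was 0.0145% without the collagen with most counts in each library, and the ratio of fat to islet, 1.28, became 3.19, since Col14a1 leads in islet. That ratio was 0.948 per macrophage marker count. With 1 library left out, it ranged from 0.825 (without fat library 2) to 1.67, the islet mean from 0.0403% to 0.0501% and the fat mean from 0.0377% to 0.0764%. Low counts kept 22 collagens out of the test. With no filter or in DESeq2, 2 of them, Col4a4 and Col4a5, were lower in islet, and for the other 20 no difference was detectable.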
